A study of Mus musculus with 12 samples.

Results

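The members are 35 mouse genes of liver macrophages, chosen by symbol from the 54839 features of the deposited table: 6 genes of resident Kupffer cells, 8 of monocyte-derived and scar-associated macrophages (called infiltrating here), 17 pan-myeloid genes and 4 genes of MHC class II antigen presentation. All 35 were found and all 35 passed the filter on low counts. They were measured by RNA-seq in 12 libraries, 3 each of tdT-negative (Tom-) and tdT-positive (Tom+) hepatocytes from mice given oil or CCl4, a solvent that injures hepatocytes and leads to fibrosis on repeated dosing. The mice were male C57BL/6 p16-Tom heterozygotes that carried p16-CreERT2 and the R26-CAG-LSL-tdTomato-WPRE reporter, and all of them, oil controls included, received tamoxifen. The recombinase is driven by p16Ink4a in any cell type that uses this gene, not by a promoter particular to hepatocytes. The cells were taken by collagenase perfusion and low-speed pelleting, then sorted on DAPI, scatter, singlets and tdTomato. The paper's gating figure also shows an axis of autofluorescence, and the methods name no antibody against a leukocyte marker for this sort.

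Kupffer cells are the resident macrophages of the liver sinusoid, seeded largely before birth and renewed in place, and they clear particles, bacteria and dying cells from portal blood. After injury, monocytes enter from blood through the receptor Ccr2 and become macrophages that can take on a lipid-handling, scar-associated state marked by Trem2, Gpnmb and Lgals3, which has been described in the fibrotic niche. Hepatocyte preparations commonly hold some cells of other liver types. In these bulk libraries, fewer macrophages and less macrophage RNA per cell cannot be told apart.

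The promoter of the most abundant member of each list that has a RefSeq promoter in the table is shown as its regulatory sequence. They run from 250 bases before to 50 after the RefSeq start on GRCm38.p6, 5′ to 3′ on the gene's strand. Capitals mark GAGGAA, the core letters bound by the myeloid factor PU.1, and CCAAT, the box bound by NF-Y, each searched on both strands, so that they also read TTCCTC or ATTGG. Cd5l, for the Kupffer genes, lies at chr3:87357631-87357930 (+), Lgals3, for the infiltrating genes, at chr14:47373610-47373909 (+), Lyz2, for the pan-myeloid genes, at chr10:117282223-117282522 (-) and H2-Eb1, for MHC class II, at chr17:34305617-34305916 (+).
Cd5l: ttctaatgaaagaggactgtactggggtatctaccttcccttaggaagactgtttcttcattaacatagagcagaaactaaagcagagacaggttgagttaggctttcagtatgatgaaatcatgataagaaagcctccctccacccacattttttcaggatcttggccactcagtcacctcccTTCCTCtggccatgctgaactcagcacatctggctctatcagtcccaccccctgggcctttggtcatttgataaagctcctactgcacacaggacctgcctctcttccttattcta
Lgals3: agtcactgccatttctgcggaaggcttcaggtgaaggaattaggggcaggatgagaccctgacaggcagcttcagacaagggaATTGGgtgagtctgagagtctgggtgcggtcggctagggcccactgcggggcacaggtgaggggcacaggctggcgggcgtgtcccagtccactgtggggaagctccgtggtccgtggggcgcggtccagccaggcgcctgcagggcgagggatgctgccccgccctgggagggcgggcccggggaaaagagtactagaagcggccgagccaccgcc
Lyz2: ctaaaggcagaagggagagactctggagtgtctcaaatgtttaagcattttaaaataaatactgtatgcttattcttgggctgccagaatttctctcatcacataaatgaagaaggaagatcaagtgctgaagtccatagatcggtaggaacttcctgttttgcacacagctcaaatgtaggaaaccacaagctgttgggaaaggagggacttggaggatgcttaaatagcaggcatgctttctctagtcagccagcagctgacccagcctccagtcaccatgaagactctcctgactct
H2-Eb1: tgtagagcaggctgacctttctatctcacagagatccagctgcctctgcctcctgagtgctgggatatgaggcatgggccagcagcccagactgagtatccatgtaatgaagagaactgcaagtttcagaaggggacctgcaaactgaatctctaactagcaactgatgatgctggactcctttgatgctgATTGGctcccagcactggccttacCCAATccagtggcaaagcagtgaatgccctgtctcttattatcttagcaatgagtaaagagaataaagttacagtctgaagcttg
GAGGAA occurred once in the Cd5l window and CCAAT once in Lgals3, whereas H2-Eb1 held CCAAT 2 times and Lyz2 held neither. Over the 27 members with a RefSeq promoter in the table, 15 had GAGGAA in at least 1 promoter, against 31.3% of 27025 genes, and 13 had CCAAT, against 41.1%. By list, GAGGAA was found in 3 of 6 Kupffer, 4 of 8 infiltrating, 8 of 11 pan-myeloid and 0 of 2 MHC class II genes, and CCAAT in 3 of 6, 3 of 8, 5 of 11 and 2 of 2. These are matches of letters in a window and were given no test.

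The libraries held 37568584 to 75331424 counts (median 47910752), so that 3 counts, the level taken as the limit of detection, correspond to 0.0369 to 0.0829 CPM (counts scaled to library size). Hepatocyte genes dominated every library: the summed level of 10 hepatocyte markers was 125100 to 159000 TPM (counts divided by gene length and scaled to a common total in each library), against 11.1 to 108.0 TPM for the 6 Kupffer genes. The tdTomato reporter was at 1225 to 1794 CPM in 6 libraries and 119.7 to 263.1 CPM in the other 6, which went against the labels of the libraries labelled Tom- oil replicate 1 (high) and Tom+ oil replicate 2 (low). Results of the oil groups are therefore also given without these libraries, and CCl4 was compared with oil as the average over both fractions, in which these labels still enter through the group means.

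The Kupffer genes were present in every library, and in oil their level differed widely between replicates. Cd5l, a secreted scavenger-like protein that protects macrophages from apoptosis, had the highest level of the 6 (chr3:87357881-87371073, +). Its TPM was 4.24, 6.04 and 24.6 in Tom- oil, 8.57, 8.42 and 40.3 in Tom+ oil, 38.8, 26.4 and 39.0 in Tom- CCl4 and 24.8, 18.8 and 54.7 in Tom+ CCl4, in order of replicate number. Clec4f, a lectin of Kupffer cells that binds galactosylated glycans (chr6:83644542-83656187, -), was at 3.09, 4.37 and 18.6 TPM in Tom- oil, 6.65, 3.95 and 26.0 in Tom+ oil, 16.0, 19.4 and 28.0 in Tom- CCl4 and 11.9, 11.3 and 27.2 in Tom+ CCl4. For both genes, replicate 3 of either oil fraction lay within the range of the CCl4 libraries, and the other 4 oil libraries lay below all 6 of them.

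The other 4 Kupffer genes were also highest of their oil group in replicate 3. Vsig4, a complement receptor that captures circulating bacteria, was at 2.09, 1.85 and 7.69 TPM in Tom- oil, 2.08, 1.70 and 10.9 in Tom+ oil, 7.89, 11.5 and 9.90 in Tom- CCl4 and 3.70, 7.08 and 12.1 in Tom+ CCl4. Marco, a scavenger receptor for bacteria and particles, was at 0.929, 0.822 and 7.16 TPM in Tom- oil, 2.097, 2.118 and 4.94 in Tom+ oil, 9.18, 9.50 and 4.53 in Tom- CCl4 and 6.68, 4.47 and 9.96 in Tom+ CCl4. Marco was the member of the list with the largest CCl4 difference, and its oil replicate 3 libraries still overlapped with CCl4. Timd4, a phosphatidylserine receptor for dying cells kept by long-resident Kupffer cells, was at 0.329, 0.343 and 1.95 TPM in Tom- oil, 0.355, 0.693 and 2.92 in Tom+ oil, 1.67, 2.69 and 2.77 in Tom- CCl4 and 0.992, 0.898 and 2.23 in Tom+ CCl4. Cd163, the receptor for haemoglobin bound to haptoglobin, was at 0.469, 0.307 and 1.35 TPM in Tom- oil, 0.578, 0.390 and 2.44 in Tom+ oil, 1.20, 1.87 and 2.34 in Tom- CCl4 and 0.963, 1.14 and 1.92 in Tom+ CCl4. The highest value of Timd4 and of Cd163 over all 12 libraries was that of Tom+ oil replicate 3.

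None of the 6 Kupffer genes passed the test for CCl4 against oil averaged over both fractions, where a gene was called at an adjusted p under 0.05 and a log2 fold change beyond 0.75 in edgeR's quasi-likelihood test (of the 17121 genes tested, 6.17% were called higher and 2.26% lower). All 6 fold changes were positive, from 0.74 (Timd4, adjusted p = 0.408) to 1.28 (Marco, SE 0.55, adjusted p = 0.132), with a median of 0.92 on the log2 scale against 0.0027 over all genes. At an unadjusted p under 0.05 there was 1 of the 6, against 6000 of all 17121 genes. DESeq2 called 0 (6.95% of all genes higher, 2.56% lower) and limma-voom called 2, Marco and Cd5l (6.6% and 2.45%). Without both oil replicate 3 libraries, an alternative chosen after seeing the data, all 6 were called, at log2 fold changes of 1.84 (Cd163, adjusted p = 0.00141) to 2.42 (Marco, adjusted p = 0.000242), against 7.81% of all genes called higher and 2.25% lower. In that alternative, which leaves 4 oil libraries against 6, 25 of the 35 members were called higher. The libraries left out were the highest of their oil group for all 6 Kupffer genes, so these calls are not an independent test. With a single one of these libraries left out, 14 members were called without Tom- oil replicate 3 and 11 without Tom+ oil replicate 3, against 7 with all libraries. The share of all genes called in these fits is not given here, so the counts are not set against it.

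**Figure D1:**
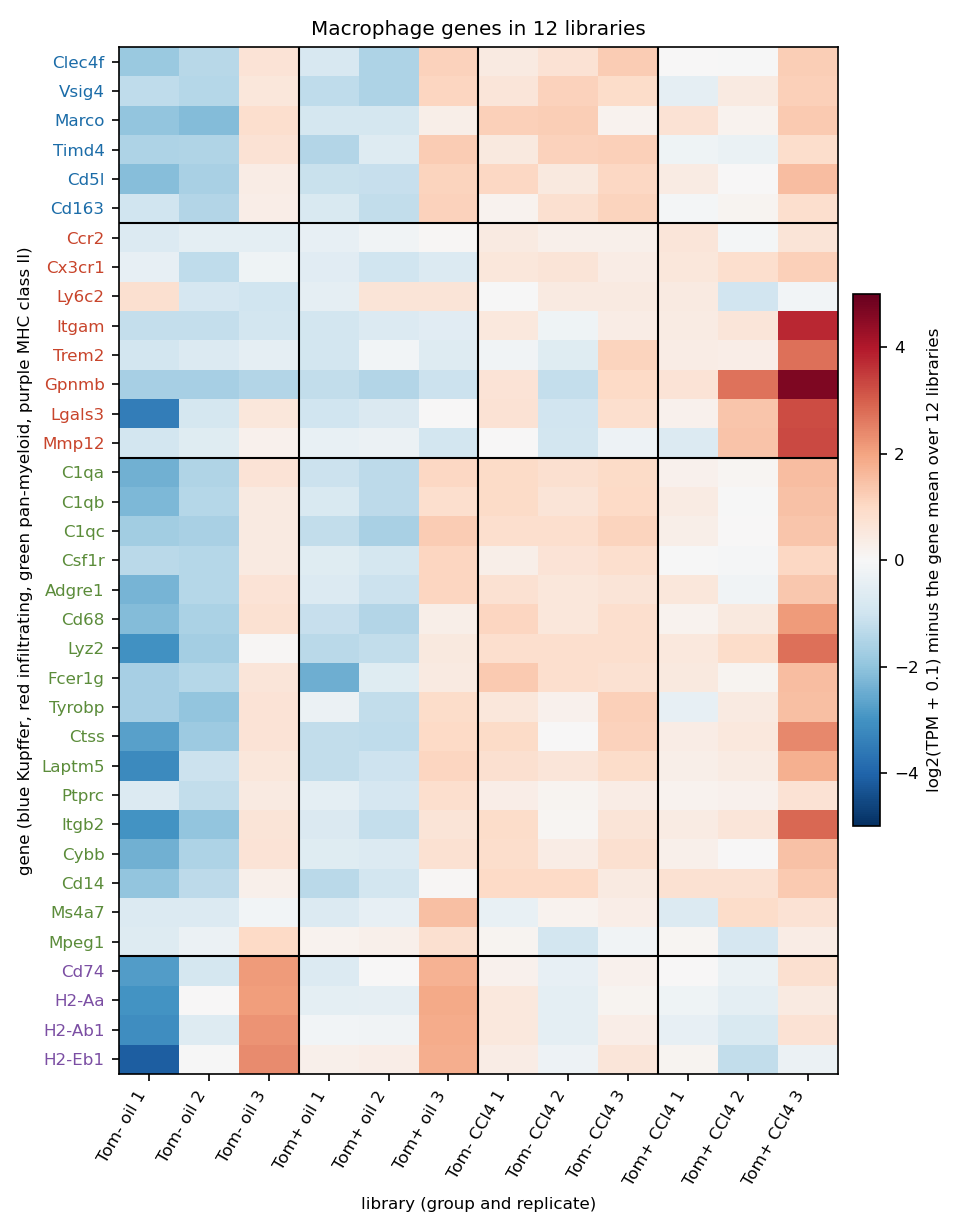
Level of the 35 genes (rows, grouped by list) in the 12 libraries (columns), as log2(TPM + 0.1) minus the mean of the gene over the libraries. Kupffer, pan-myeloid and MHC class II genes are high in replicate 3 of both oil fractions, while Gpnmb, Itgam, Lgals3, Mmp12 and Trem2 are highest in Tom+ CCl4 replicate 3.

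Replicate 3 stood apart in oil over most of the members. Among the 3 Tom- oil libraries, replicate 3 was the highest for 34 of 35 members, and among the 3 Tom+ oil libraries for 32 of 35. The median over the 6 Kupffer genes of its TPM divided by the mean of replicates 1 and 2 was 4.89 in Tom- oil and 4.98 in Tom+ oil, against 1.23 in Tom- CCl4 and 2.29 in Tom+ CCl4. Endothelial and stellate markers moved with it to a smaller extent. Summed over 8 genes each, endothelial markers were at 74.7 and 86.0 TPM in the 2 oil replicate 3 libraries and 46.7 to 75.5 in the other 4, and stellate markers at 5.66 and 7.86 against 3.15 to 4.33. Their part in the result was not tested.

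The infiltrating genes lay far below the Kupffer genes per length and made up most of the calls. Averaged over both fractions, 5 of 8 were called higher in CCl4, namely Gpnmb, Itgam, Trem2, Cx3cr1 and Ccr2, and the median log2 fold change of the list was 2.39. Because few reads were behind them, counts are given here rather than TPM. They are not scaled to library size, and Tom+ CCl4 replicate 1 was the deepest library. There Gpnmb had 80 counts or 0.985 CPM, against 46 counts or 1.16 CPM in Tom- CCl4 replicate 1. Itgam likewise had 32 counts or 0.394 CPM against 20 counts or 0.506 CPM. The 5 calls remained without the 2 oil libraries that went against their labels, when 4.65% of all genes were called higher and 1.69% lower. Limma-voom called Cx3cr1 and Ccr2 of the 5, and DESeq2 called 4, having given no adjusted p for Itgam. The Tom+ and Tom- libraries of a number varied together, so that these 6 libraries a treatment are not 6 independent samples. With same-numbered libraries summed to 3 against 3, 2 of the 35 members were called, Cx3cr1 and Gpnmb, against 3.34% of all genes called higher and 1.44% lower.

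Gpnmb, a glycoprotein of lysosome-rich, lipid-laden macrophages (chr6:49036546-49070929, +), had 0, 0 and 2 counts in Tom- oil, 6, 2 and 6 in Tom+ oil, 46, 4 and 76 in Tom- CCl4 and 80, 221 and 1005 in Tom+ CCl4. The 2 libraries with most Gpnmb were both Tom+ CCl4, and Tom- CCl4 replicate 2 overlapped with oil. The fitted log2 fold change was 6.25 (SE 1.14, adjusted p = 0.00519), with 5.42 (adjusted p = 0.00157) without Tom+ CCl4 replicate 3 and 7.63 (adjusted p = 0.0226) without Tom- oil replicate 3. The ratio of pooled normalized counts was 90.4 over both fractions (95% exact interval 55.5 to 158.5, from 1432 against 16 counts). In Tom- alone it was 70.9 (19.2 to 591.6, from 126 against 2 counts). These intervals cover counting error only and take each count as an independent read. Of the members' whole values of 1 to 50, 81.8% were even, so a fragment may count as 2 and the intervals may be too narrow.

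Itgam, the CD11b chain of the Mac-1 integrin (chr7:128062640-128118491, +), had 0, 0 and 2 counts in Tom- oil, 3, 5 and 5 in Tom+ oil, 20, 8 and 22 in Tom- CCl4 and 32, 22 and 291 in Tom+ CCl4. All 6 CCl4 libraries lay above all 6 oil libraries, and the log2 fold change was 4.66 (SE 0.91, adjusted p = 0.00422), with 3.46 (adjusted p = 0.00266) without Tom+ CCl4 replicate 3 and 6.04 (adjusted p = 0.0149) without Tom- oil replicate 3. Its exons share 3450 of 5024 bases with the annotated gene Gm49368 on the same strand, and reads of the 2 genes could be split in counting. Trem2, a lipid receptor of these macrophages, had 0, 2 and 4 counts in Tom- oil, 0, 8 and 2 in Tom+ oil, 6, 2 and 34 in Tom- CCl4 and 22, 12 and 112 in Tom+ CCl4. Its log2 fold change of 3.33 (SE 0.94, adjusted p = 0.0241) no longer passed on leaving out any of 4 libraries: 2.41 (adjusted p = 0.0761) without Tom+ CCl4 replicate 3, 2.54 (0.0967) without Tom- CCl4 replicate 3, 3.08 (0.0541) without Tom- oil replicate 1 and 3.30 (0.0572) without Tom- oil replicate 2. Without Tom+ oil replicate 2 it was 4.13 (adjusted p = 0.0224).

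The chemokine receptors of monocytes showed smaller differences that did not rest on a particular CCl4 library. Cx3cr1, the fractalkine receptor, had 6, 0 and 10 counts in Tom- oil, 8, 2 and 4 in Tom+ oil, 20, 20 and 21 in Tom- CCl4 and 36, 26 and 40 in Tom+ CCl4. The treatments did not overlap in CPM, the log2 fold change was 2.44 (SE 0.53, adjusted p = 0.00598), and all 23 alternatives called it, with adjusted p-values of 4.34e-05 to 0.0387. Ccr2, the receptor by which monocytes leave bone marrow and enter inflamed tissue, had 0, 2 and 2 counts in Tom- oil, 4, 6 and 8 in Tom+ oil, 14, 10 and 14 in Tom- CCl4 and 30, 6 and 20 in Tom+ CCl4. Its log2 fold change was 2.35 (SE 0.54, adjusted p = 0.00827), and 22 of 23 alternatives called it. Over all 35 members, Cx3cr1, Itgam and Cd14 had every CCl4 library above every oil library in CPM, which held for 4.16% of all genes, and no member had every CCl4 library below every oil library (3.49% of all genes).

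The other 3 infiltrating genes did not pass the test. Lgals3, a galectin of phagocytes, had 0, 20 and 58 counts in Tom- oil, 24, 24 and 34 in Tom+ oil, 56, 14 and 79 in Tom- CCl4 and 68, 89 and 379 in Tom+ CCl4 (log2 fold change 1.92, SE 0.77, adjusted p = 0.107). Mmp12, the macrophage elastase, had 0, 4 and 18 counts in Tom- oil, 10, 9 and 0 in Tom+ oil, 12, 0 and 10 in Tom- CCl4 and 4, 52 and 250 in Tom+ CCl4 (2.20, SE 1.14, adjusted p = 0.199). Ly6c2, the surface marker of inflammatory monocytes, had 17, 3 and 2 counts in Tom- oil, 8, 20 and 16 in Tom+ oil, 8, 12 and 17 in Tom- CCl4 and 23, 2 and 8 in Tom+ CCl4, with a log2 fold change of 0.0042 (SE 0.53, adjusted p = 0.997). Mmp12 counts over 18 were found in Tom+ CCl4 replicates 2 and 3 and in no other library, while the Ly6c2 counts of the treatments overlapped over nearly their whole range.

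**Figure D2:**
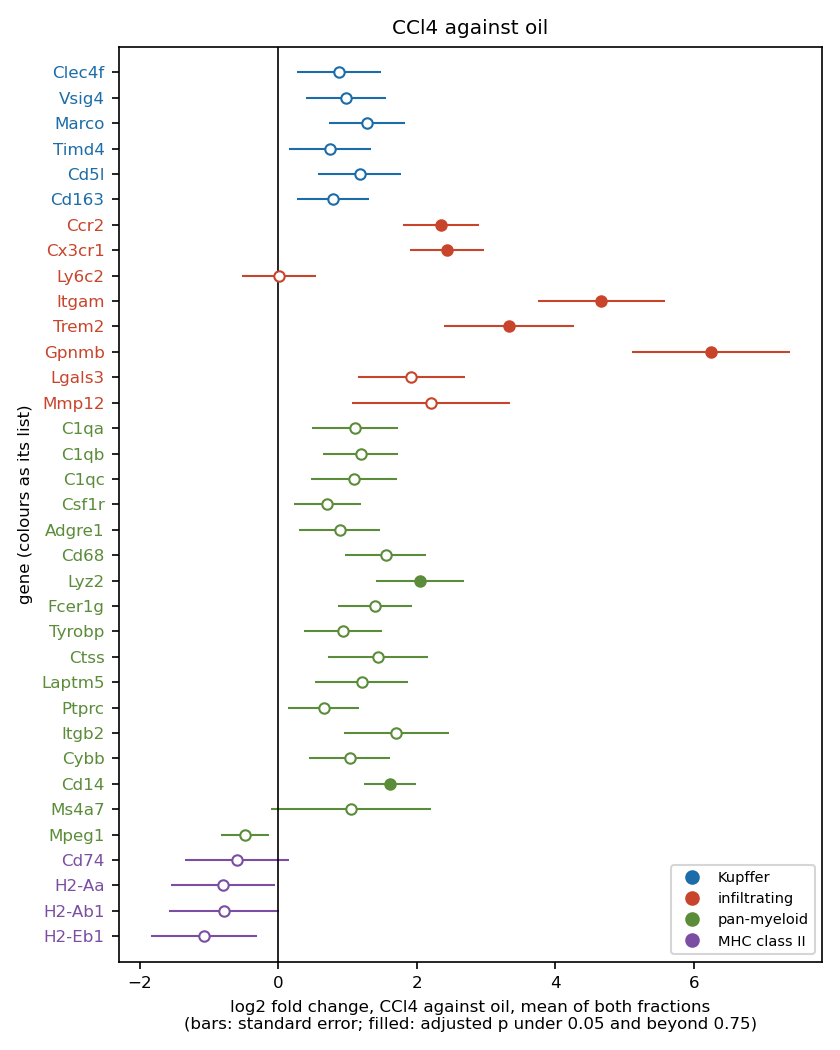
Log2 fold change of CCl4 against oil, averaged over both fractions, for the 35 genes (points, bars for the standard error, filled where called). The 5 filled infiltrating genes range from 2.35 to 6.25, the 6 Kupffer genes from 0.74 to 1.28, and the 4 MHC class II genes lie below 0.

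Tom+ CCl4 replicate 3 held the highest value of all 12 libraries for 23 of 35 members. For the infiltrating list the median of its TPM over the mean of replicates 1 and 2 was 6.05, against 2.29 for the Kupffer list and 2.38 for the pan-myeloid list. Genes of the infiltrating state that are no members were also counted, from a list of 16 chosen with earlier results known. Of these, 12 were tested and 8 were called higher in CCl4 averaged over both fractions, against 6.17% of all genes called higher and 2.26% lower. The 16 genes summed to 446.7 to 511 TPM in oil, against 0.449 to 1.9 for the 8 infiltrating members, and which cells this RNA came from was not tested. Chil3, a chitinase-like protein of alternatively activated macrophages, had 0 to 2 counts in the 6 oil libraries, 0, 24 and 2 in Tom- CCl4 and 18, 122 and 615 in Tom+ CCl4 (log2 fold change 7.46, SE 2.15, adjusted p = 0.0479). The others with the largest change were Cd63 (4.75, adjusted p = 3.8e-05) and Lpl (4.07, adjusted p = 0.000684), both of which are also made by other liver cells.

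Of the 17 pan-myeloid genes, edgeR called Lyz2 and Cd14 higher in CCl4 averaged over both fractions. DESeq2 called 4, adding Cd68 and Fcer1g, and limma-voom called 11, adding to these 4 C1qa, C1qb, C1qc, Adgre1, Ctss, Laptm5 and Cybb. In all, 16 of the 17 fold changes were positive, and the median was 1.11 on the log2 scale. Lyz2, lysozyme of phagocytes, was at 2.08, 5.38 and 18.2 TPM in Tom- oil, 6.80, 7.51 and 25.0 in Tom+ oil, 32.0, 32.1 and 31.8 in Tom- CCl4 and 25.8, 33.1 and 120.2 in Tom+ CCl4. Its log2 fold change was 2.04 (SE 0.63, adjusted p = 0.0491). Without Tom+ CCl4 replicate 3 it was 1.501 (adjusted p = 0.119), without the 2 oil libraries that went against their labels 1.69 (adjusted p = 0.136), and 12 of 24 alternatives did not call it. Cd14, the co-receptor for lipopolysaccharide, was at 0.455, 0.770 and 2.51 TPM in Tom- oil, 0.759, 1.04 and 2.19 in Tom+ oil, 4.27, 4.23 and 2.89 in Tom- CCl4 and 3.57, 3.58 and 5.28 in Tom+ CCl4. The lowest CCl4 library lay above the highest oil library, the log2 fold change was 1.61 (SE 0.37, adjusted p = 0.00942), and 23 of 24 alternatives called it.

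The complement genes C1qa, C1qb and C1qc, which encode the chains of C1q, had mean levels of 9.48 ± 10.4, 9.25 ± 9.01 and 4.89 ± 4.59 TPM in Tom- oil and 24.9 ± 1.45, 26.4 ± 3.64 and 14.3 ± 1.64 in Tom- CCl4 (SD, n = 3). Their averaged log2 fold changes of 1.11, 1.19 and 1.09 did not pass edgeR's test (adjusted p-values of 0.157 to 0.25). In the Tom- fraction the spread between oil replicates was thus larger than that between CCl4 replicates, whereas in Tom+ C1qa was at 12.8 ± 12.2 TPM in oil and 22.7 ± 13.9 with CCl4. The Tom- pattern also held for Csf1r, the receptor of macrophage growth factor (3.64 ± 2.94 against 7.96 ± 1.51 TPM), Adgre1, which encodes F4/80 (2.14 ± 2.35 against 4.79 ± 0.335), and Cd68, a lysosomal glycoprotein (2.12 ± 2.42 against 5.23 ± 0.897). The signalling adaptors Fcer1g and Tyrobp had log2 fold changes of 1.39 and 0.94, and the protease Ctss, the lysosomal Laptm5, the leukocyte phosphatase Ptprc, the integrin chain Itgb2 and the oxidase subunit Cybb ranged from 0.66 (Ptprc) to 1.70 (Itgb2), none of them called in edgeR. Ms4a7, a membrane protein of macrophages, stayed at 28 counts or fewer in every library.

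Mpeg1, which encodes the pore-forming perforin-2 of macrophages, was the pan-myeloid gene with a negative fold change. It was at 26.3 ± 16.7 TPM in Tom- oil and 31.5 ± 7.89 in Tom+ oil, and at 19.3 ± 6.50 in Tom- CCl4 and 22.3 ± 8.73 in Tom+ CCl4 (SD, n = 3), with a log2 fold change of -0.48 (SE 0.34, adjusted p = 0.357). In TPM it was the highest of the 17 genes in all 6 oil libraries, while Lyz2 was the highest in all 6 CCl4 libraries.

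The 4 MHC class II genes had negative fold changes, and none passed the test. Cd74, the invariant chain that guides class II molecules to endosomes, was at 1.86, 7.16 and 58.3 TPM in Tom- oil, 8.31, 13.7 and 44.8 in Tom+ oil, 15.5, 10.1 and 15.5 in Tom- CCl4 and 13.8, 10.7 and 23.2 in Tom+ CCl4. Both oil replicate 3 libraries lay above all CCl4 libraries. H2-Aa and H2-Ab1, which encode the chains of I-A, and H2-Eb1, the gene of the I-E beta chain, were at 10.2 to 17.7 TPM in these 2 libraries. They were at 0.101 to 4.27 TPM in the other 4 oil libraries and at 1.36 to 5.45 TPM in the 6 CCl4 libraries. The log2 fold changes of the 4 genes were -0.60 (Cd74, SE 0.75, adjusted p = 0.617), -0.80 (H2-Aa), -0.78 (H2-Ab1) and -1.07 (H2-Eb1, SE 0.77, adjusted p = 0.358). At an unadjusted p under 0.05 there were 0 of 4, against 6000 of all 17121 genes, and DESeq2 and limma-voom called 0. Without both oil replicate 3 libraries the 4 values turned positive, from 0.29 (H2-Eb1, adjusted p = 0.77) to 1.05 (Cd74, adjusted p = 0.1).

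The level of MHC class II was also set against the Kupffer genes of the same library, as a description. The mean log2(TPM + 0.1) of the Kupffer list minus that of the MHC class II list was -1.28 and -1.69 in Tom- oil replicates 2 and 3 and -0.86, -1.18 and -0.89 in Tom+ oil. It was 0.17, 1.25 and 0.56 in Tom- CCl4 and 0.10, 0.69 and 0.68 in Tom+ CCl4. Oil libraries were thus below 0 and CCl4 libraries above it, except for the library labelled Tom- oil replicate 1 at 1.54, where H2-Eb1 had 2 counts and H2-Aa and H2-Ab1 had 8 each. B cells and dendritic cells also use class II: the 5 B cell markers summed to 0 to 0.637 TPM in oil and 0.0212 to 0.432 in CCl4, and the 6 dendritic cell markers to 1.24 to 1.79 and 1.33 to 2.35, with Siglech at 0 counts in every library. Their part in the result was not tested.

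The comparison of Kupffer against infiltrating genes was made with the same measure. The Kupffer list minus the infiltrating list was 3.94 ± 0.96 in Tom- oil, 4.13 ± 1.11 in Tom+ oil, 4.67 ± 0.50 in Tom- CCl4 and 3.24 ± 0.50 in Tom+ CCl4 on the log2 scale (SD, n = 3, no test). By library it was 3.43, 3.35 and 5.05 in Tom- oil, 3.68, 3.32 and 5.40 in Tom+ oil, 4.32, 5.24 and 4.43 in Tom- CCl4 and 3.73, 3.28 and 2.73 in Tom+ CCl4. The 3 Tom+ CCl4 libraries lay below the 3 Tom- CCl4 libraries, and the oil groups overlapped with both. In oil the measure depends on the pseudocount, as many infiltrating genes were near 0 (6 of 8 at 0 counts in Tom- oil replicate 1). With a pseudocount of 1 TPM the lowest group was Tom- oil at 1.77, against 2.04 in Tom+ CCl4. The infiltrating list alone was at -2.94 to -2.27 in the 6 oil libraries and -2.20 to 0.56 in the 6 CCl4 libraries, whereas the Kupffer list ranged from 0.49 to 3.13 in oil and 2.18 to 3.29 with CCl4.

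**Figure D3:**
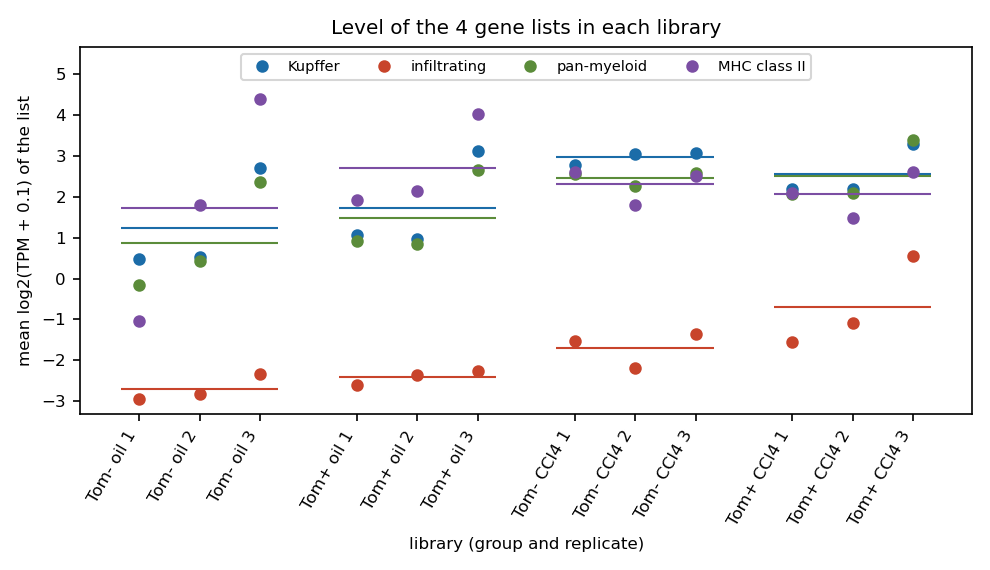
Mean log2(TPM + 0.1) of each of the 4 gene lists in each library (points) and the mean of each group of 3 (lines). The infiltrating list lies above -2.27 only in the CCl4 libraries and reaches 0.56 in Tom+ CCl4 replicate 3, while the other 3 lists are high in both oil replicate 3 libraries.

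Within each fraction, CCl4 against oil called fewer members. In Tom- hepatocytes 2 of 35 were called higher, Ccr2 (log2 fold change 3.34, SE 0.84, adjusted p = 0.0172) and Cd14 (1.70, SE 0.53, adjusted p = 0.0461), against 6.33% of all genes called higher and 1.59% lower. In Tom+ hepatocytes 3 of 35 were called higher, Gpnmb (6.64, SE 1.39, adjusted p = 0.0186), Itgam (4.75, SE 1.11, adjusted p = 0.0204) and Cx3cr1 (2.82, SE 0.76, adjusted p = 0.0323), against 2.9% called higher and 2.34% lower. Without the 2 oil libraries that went against their labels, both counts were 0 in edgeR, with 4.32% of all genes called higher and 1.14% lower in Tom- and 2.09% and 1.42% in Tom+. The fold changes were then 2.88 for Ccr2 (adjusted p = 0.0685) and 1.34 for Cd14 (0.149) in Tom-, and 6.30 for Gpnmb (0.101), 4.88 for Itgam (0.106) and 2.48 for Cx3cr1 (0.136) in Tom+. Leaving out Tom- oil replicate 1 alone gave 0 calls in Tom-, with Ccr2 at 2.88 (adjusted p = 0.0572). Leaving out Tom- oil replicate 3 gave 7 and Tom+ CCl4 replicate 3 gave 4, and Tom- oil replicate 2, Tom+ oil replicate 2 or any Tom- CCl4 library gave 1. The share of all genes called with 1 library left out is not given here, for Tom- or for Tom+. Without Tom- oil replicate 3, Cd14 was at 2.69 (adjusted p = 0.00409). In Tom+, leaving out Tom+ oil replicate 1 or 2 gave 0 calls, and leaving out Tom+ CCl4 replicate 3 gave 1, Gpnmb. Leaving out Tom+ oil replicate 3 also gave 1, but of another member. Gpnmb (adjusted p = 0.0517), Itgam (0.0528) and Cx3cr1 (0.0628) were then no longer called. Without Tom+ CCl4 replicate 3, Gpnmb was at 5.002 (adjusted p = 0.022), Itgam at 2.34 (adjusted p = 0.126) and Cx3cr1 at 2.54 (adjusted p = 0.122).

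Whether the Tom+ fraction differed from Tom- with CCl4 was then compared. None of the 35 members was called in edgeR's test, in which 0.222% of all genes were called higher and 1.74% lower. At an unadjusted p under 0.05 there were 3 members, against 3901 of all 17121 genes, and DESeq2 and limma-voom called 0. The 6 Kupffer genes all had negative fold changes, from -1.02 (Timd4, SE 0.83, adjusted p = 0.512) to -0.30 (Cd5l). Of the infiltrating genes, Mmp12 (3.58, SE 1.53, adjusted p = 0.198), Gpnmb (3.18, SE 1.07, adjusted p = 0.118) and Itgam (2.52, SE 0.95, adjusted p = 0.142) had the largest positive ones. Without Tom+ CCl4 replicate 3 these were 1.72, 1.57 and 0.13 (adjusted p-values of 0.54, 0.328 and 0.945).

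The differences were then taken by same-numbered pair. In CCl4 pair 1, 31 of 35 members were lower in Tom+ and in pair 2, 21 of 35, whereas in pair 3, 30 of 35 were higher in Tom+. All 6 Kupffer genes were lower in Tom+ in pairs 1 and 2, by medians of -0.55 and -0.73 on the log2 scale, and 3 of 6 in pair 3, with a median of 0.12. For the infiltrating genes the medians of the pairs were 0.02, 0.88 and 2.03. With the pairs as a block, Timd4 was called lower in Tom+ (-1.08, adjusted p = 0.0227), against 0.736% of all genes called higher and 3.25% lower. Without both CCl4 replicate 3 libraries, an alternative chosen after seeing the data, this fit called 8 members lower in Tom+, all of them Kupffer or pan-myeloid genes, against 0.545% of all genes called higher and 2.53% lower: Clec4f, Vsig4, Timd4, Cd5l, C1qa, C1qb, C1qc and Csf1r, at -0.75 (Csf1r, adjusted p = 0.00751) to -1.39 (Timd4, adjusted p = 0.0331). Pair 3, left out here, was the pair in which most members were higher in Tom+, so these calls are not an independent test. In the fit without the block the 8 endothelial markers had negative fold changes in the same contrast, 4 of them called, and with the block 5 were called lower. Their part in the result was not tested.

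**Figure D4:**
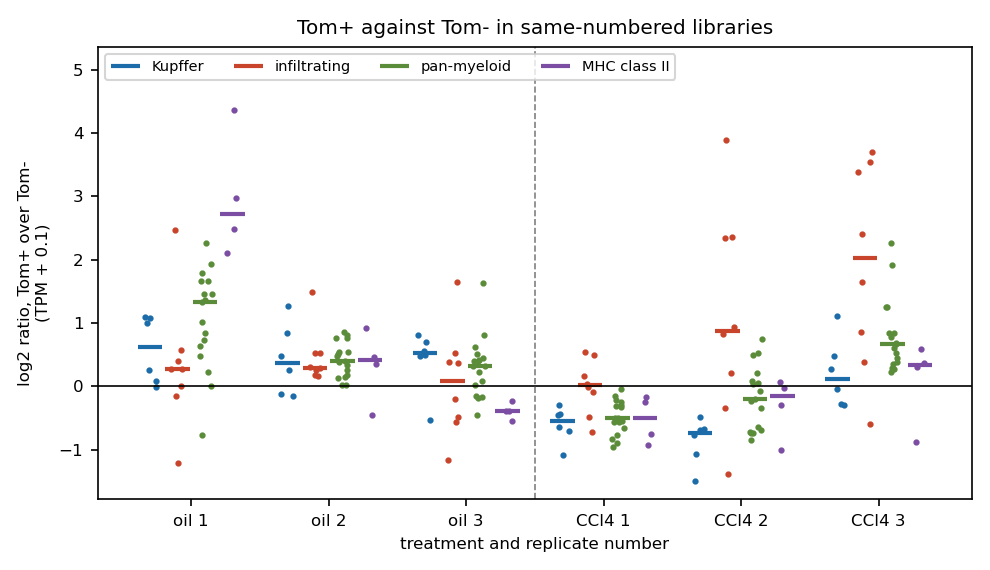
Log2 ratio of Tom+ over Tom- in libraries of the same number (TPM + 0.1), for each gene (points, coloured by list) with the median of each list (bars). In CCl4 pairs 1 and 2 all Kupffer genes lie below 0, and the highest CCl4 ratios are those of the infiltrating gene Gpnmb, 3.89 in pair 2 and 3.70 in pair 3. The highest ratio of all, 4.36 for H2-Eb1, is in oil pair 1, against the library with 2 counts.

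In oil no member was called between the fractions, and 0% of all genes in either direction (1198 genes and 1 member had an unadjusted p under 0.05, and DESeq2 and limma-voom called 0 members). The labelled Tom+ library was the higher for 29, 32 and 22 of 35 members in oil pairs 1, 2 and 3, but in pairs 1 and 2 both libraries of the pair were on the same side of the reporter gap. Of the 6 Kupffer genes, 5, 4 and 5 were higher in the labelled Tom+ library, with medians of 0.62, 0.37 and 0.52 on the log2 scale.

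The difference of the Tom+ against Tom- contrast between CCl4 and oil was tested directly, and no member was called in edgeR (0.216% of all genes called higher and 0.958% lower). At an unadjusted p under 0.05 there were 0 of 35, against 3178 of all 17121 genes, and DESeq2 and limma-voom called 0. With the pairs as a block, 6 members were called, all lower with CCl4 than with oil, against 1.28% of all genes called higher and 4.19% lower. They were the Kupffer genes Clec4f (-1.14, adjusted p = 0.0189), Timd4 (-1.71, adjusted p = 0.0244), Cd5l (-1.19, adjusted p = 0.0395) and Cd163 (-1.23, adjusted p = 0.0159), and the pan-myeloid genes C1qc (-1.11, adjusted p = 0.0324) and Csf1r (-1.15, adjusted p = 0.00414). When the 2 oil libraries that went against their labels were left out as well, which leaves the oil contrast to pair 3, Clec4f (-1.21, adjusted p = 0.0145) and Cd163 (-1.61, adjusted p = 0.0258) were still called, against 0.816% of all genes called higher and 1.78% lower. In the blocked contrast over all 12 libraries, 8 of 8 endothelial markers were called lower as well, with a median of -1.03 on the log2 scale, and their part in the result was not tested. Exons on the opposite strand overlap Csf1r (Hmgxb3, 873 bases), Mmp12 (Mmp1b, 157 bases) and Cx3cr1 (Gm33858, 78 bases), and the strand setting of the counting is not given in the sources used here.

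Markers of other cells stood beside the CCl4 differences. Endothelial markers summed to 46.7 to 86.0 TPM in oil and 72.5 to 130.4 with CCl4, and stellate cell markers to 3.15 to 7.86 and 14.9 to 32.1. In Tom- hepatocytes 8 of 8 endothelial and 7 of 8 stellate markers were called higher with CCl4, and in Tom+ hepatocytes 0 and 6. The 6 neutrophil markers summed to 0 to 1.43 TPM in oil and 0.407 to 3.31 with CCl4, with Ly6g at 0 counts in 11 of 12 libraries, and the 9 T and NK cell markers to 0.638 to 3.33 and 1.11 to 2.96. Of further Kupffer genes that are no members, 1 of 10 was called higher, Id3 (2.101, adjusted p = 0.00241), and of further leukocyte genes 3 of 20, among them Rac2 (1.62, adjusted p = 0.0332) and Arhgdib (1.14, adjusted p = 0.0113). Their part in the members' results was not tested.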

How the data were processed

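RNA-seq of 12 libraries (4 groups of 3) was analysed. Per the submitters' processing notes, reads passed through fastp (v0.23.2), HISAT2 (v2.1.0) placed them on the mm10 genome, and DESeq2 (v1.42.1) served for the authors' own tests. The counting program, its strand setting and the annotation are not given in the sources used here. The deposited values are expected counts per feature (54839 features), not normalized, of which 30.4 to 32.9% of the non-zero values were not whole; they were rounded before testing, although the design had assumed whole counts. Of the whole values of 1 to 50, 67.3% were even over all features and 81.8% among the members (110 values). Part of the reads may thus be counted as 2 per fragment, also in the low counts given here. Symbols were matched for 54723 features (99.8%). Samples were grouped by their titles, and nothing states that replicates of a group came from separate mice, so p-values measure the spread between these libraries.

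edgeR (v4.0.16, R v4.3.3) with TMM, filterByExpr (17121 genes) and the robust quasi-likelihood test was fitted once to the 12 libraries, with Benjamini-Hochberg adjustment over all genes. TPM was computed from the rounded counts and the deposited lengths, and lists were averaged as log2(TPM + 0.1). Alternatives were DESeq2 (v1.42.0), limma-voom (limma v3.58.1), other normalizations and filters, left-out libraries and the replicate number as a block (the 6 pairs of treatment and number for Tom+ against Tom-). Over 13061 genes the deviations of same-numbered Tom+ and Tom- libraries of a treatment correlated at 0.375 to 0.635, so they were taken as pairs; the pairing comes from the numbers in the titles. Members and lists were chosen with earlier results of these data known. Every member is accounted for, with values by library for Kupffer, infiltrating and called members; non-members are named only when called, at most 3 a list, or as defining markers, and 1 called non-member is not reported here. The fit was tested on simulated data. Promoters are from RefSeq, and exon overlaps from GENCODE M21 (GRCm38). Intervals are exact binomial and cover counting error only.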

Additional observations from a re-analysis of the deposited data

Results flagged for a closer look

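With the pairs as a block, edgeR's test of the difference between treatments picked out 6 members whose Tom+ against Tom- fold change was lower with CCl4 than with oil: Clec4f (-1.14), Timd4 (-1.71), Cd5l (-1.19), Cd163 (-1.23), C1qc (-1.11) and Csf1r (-1.15 on the log2 scale). For Timd4 and Cd163 all 3 CCl4 pairs were lower in Tom+ and all 3 oil pairs were higher in the library labelled Tom+. No member was picked out in the fit without the block. The oil side of the difference rests on labels that the reporter contradicts in 2 libraries, and without these 2 libraries Clec4f and Cd163 were called. In the blocked contrast over all 12 libraries, 8 of 8 endothelial markers were called lower too (median -1.03), and their part in the result was not tested.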

How the results depend on the processing

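Of 4978 comparisons of a single member with its value under an alternative, 4727 stayed on the same side of the threshold (289 of them, called in neither, had the other sign), 185 passed it only under the alternative, 65 no longer passed and 1 called value reversed. Percentages in brackets are the share of all genes called higher, which is not given for the fits with 1 library left out. For the averaged CCl4 comparison (7 members called, 6.17%), 2 were called with at least 10 counts in every library (4.78%), where fewer genes are tested, 15 by limma-voom (6.6%), 2 with same-numbered libraries summed (3.34%), 25 without both oil replicate 3 libraries (7.81%) and 5 to 14 with 1 library left out. In Tom- (2 called, 6.33%), there was 1 without a filter (3.69%), 1 with at least 10 counts (6.32%), 4 by DESeq2 (7.8%), 5 by limma-voom (6.26%), 1 over 6 libraries (6.19%), 0 without the 2 oil libraries that went against their labels (4.32%), 19 without both oil replicate 3 libraries (7.1%) and 0 to 7 with 1 left out. In Tom+ (3 called, 2.9%), there were 0 with at least 10 counts (2.67%), 1 over 6 libraries (2.46%), 0 without the 2 oil libraries (2.09%), 9 without both oil replicate 3 libraries (3.22%) and 0 to 4 with 1 left out. The cause of these changes was not tested beyond what each alternative removes.

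CCl4 and oil libraries of the same number come from different mice. Within a fraction their deviations correlated at 0.031 to 0.298 (mean 0.112), against a mean of -0.054 for libraries of other numbers. Whether a number also stands for a shared batch is not stated and was not tested. With the number as a replicate block, 26 members were called in the averaged comparison (7.35%), 23 in Tom- (7.98%) and 7 in Tom+ (3.77%), and without the 2 oil libraries as well 19 (6.33%), 8 (6.37%) and 3 (2.93%), of which 1 was lower (H2-Eb1, averaged). For the pairs of Tom+ and Tom-, the block called 1 member with CCl4, against 0.736% of all genes called higher and 3.25% lower. Without the 2 oil libraries it called 2 (0.839% higher and 3.91% lower), and without both CCl4 replicate 3 libraries 8 (0.545% and 2.53%). For the difference between treatments it called, in the same order, 6 (1.28% and 4.19%), 2 (0.816% and 1.78%) and 12 (1.03% and 3.25%). In the last of these Lyz2 turned to -1.176 on the log2 scale. In oil the block called 0 (0.0642% and 0.169%).

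The Kupffer minus infiltrating level with a pseudocount of 1 TPM was 1.77 in Tom- oil, 2.07 in Tom+ oil, 2.86 in Tom- CCl4 and 2.04 in Tom+ CCl4, and with TMM-normalized CPM 4.12 in Tom- CCl4 and 2.49 in Tom+ CCl4. Leaving out both replicate 3 libraries of a treatment was chosen after seeing the data, in which replicate 3 stood apart for these same members. Calls under it are therefore not an independent test. With 3 libraries a group and few counts for most infiltrating genes, small differences were not detectable, and fold changes of genes at 0 in oil depend on the prior count.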
